A study of Mus musculus with 6 samples.

Results

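The genes described here encode the constitutive proteasome, its activators and its assembly factors. The set was picked with earlier results of these data known. Its members were taken by symbol, as every gene of the deposited table whose name begins with Psm, a letter from a to g and a digit. Left out were the immunoproteasome genes Psmb8, Psmb9 and Psmb10 and pseudogene symbols. This gave 46 of 16108 genes, and all 46 passed the filter on low values (at least 0.5 FPKM in at least 3 libraries), as did 11664 genes in all. RNA-seq had been performed on RAW 264.7 cells, a macrophage-like line derived from a mouse tumour, seeded on acoustic devices. In the acoustics-on group (3 libraries) the attached cells were exposed for 48 h to acoustics driven with 18 V (peak to peak) at 5 kHz, and in the acoustics-off group (3 libraries) they were kept for 48 h without acoustics. Both groups are a single transformed cell line with no genetic change between them, and the petri dish group named in the design was not analysed here.

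The proteasome is the main protease of the cytosol and nucleus and degrades proteins that carry ubiquitin chains. Its core particle is a barrel of alpha rings that gate the entrance and beta rings that hold the proteolytic sites, and the regulatory particle, made of a base with a ring of ATPases and a lid, recognises, deubiquitinates and unfolds substrates. In macrophages the core also produces peptides for MHC class I, for which interferon can replace the catalytic subunits and add the PA28 activator. Proteasome genes are known to be transcribed together, with NRF1 (Nfe2l1) as the factor that raises them when proteolysis falls short and NRF2 (Nfe2l2) as a further activator under oxidative stress.

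With acoustics on, most proteasome genes were slightly higher, and none passed the test across all genes. The log2 difference, acoustics on minus acoustics off on the log2(FPKM + 1) scale, was above 0 for 44 of 46 genes, against 47% of all genes tested, with a median of 0.40 for the proteasome genes and -0.03 for all genes tested. Of the 46, 0 rose and 0 fell at an adjusted p under 0.05 (limma, Benjamini-Hochberg over all genes tested), where 1.5% of all genes tested rose and 0.574% fell. At an unadjusted limma p under 0.05, 25 members were higher and 0 lower, where 10.5% and 9.16% of all genes tested were. In 33 of 46 genes every acoustics-on library lay above every acoustics-off library, a pattern found in 17.1% of all genes tested. The reverse order was seen in 0 of 46 members and in 17.7% of all genes tested.

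The authors' deposited table, which compared the same libraries, gave 8 of 46 proteasome genes as higher and 0 as lower at an adjusted p under 0.05, where 5.08% and 2.49% of all genes with an adjusted p were. These were Psmb5, Psmd11, Psmd5, Psmd14, Psmd10, Psma3, Psmd1 and Psme2, which lie in every role but the base ATPases and the 2 further products described last. The mean normalised count of the members in the authors' deposited table lay between 269 (Psmc3ip) and 20473 (Psmd8), which by counting alone gives a coefficient of variation between 6.10% and 0.70%. In bulk RNA, a change in the number of cells of a kind and a change in RNA per cell cannot be told apart. The labels do not say whether libraries came from separate cultures, so p-values measure the spread between these libraries, which may be technical.

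**Figure D1:**
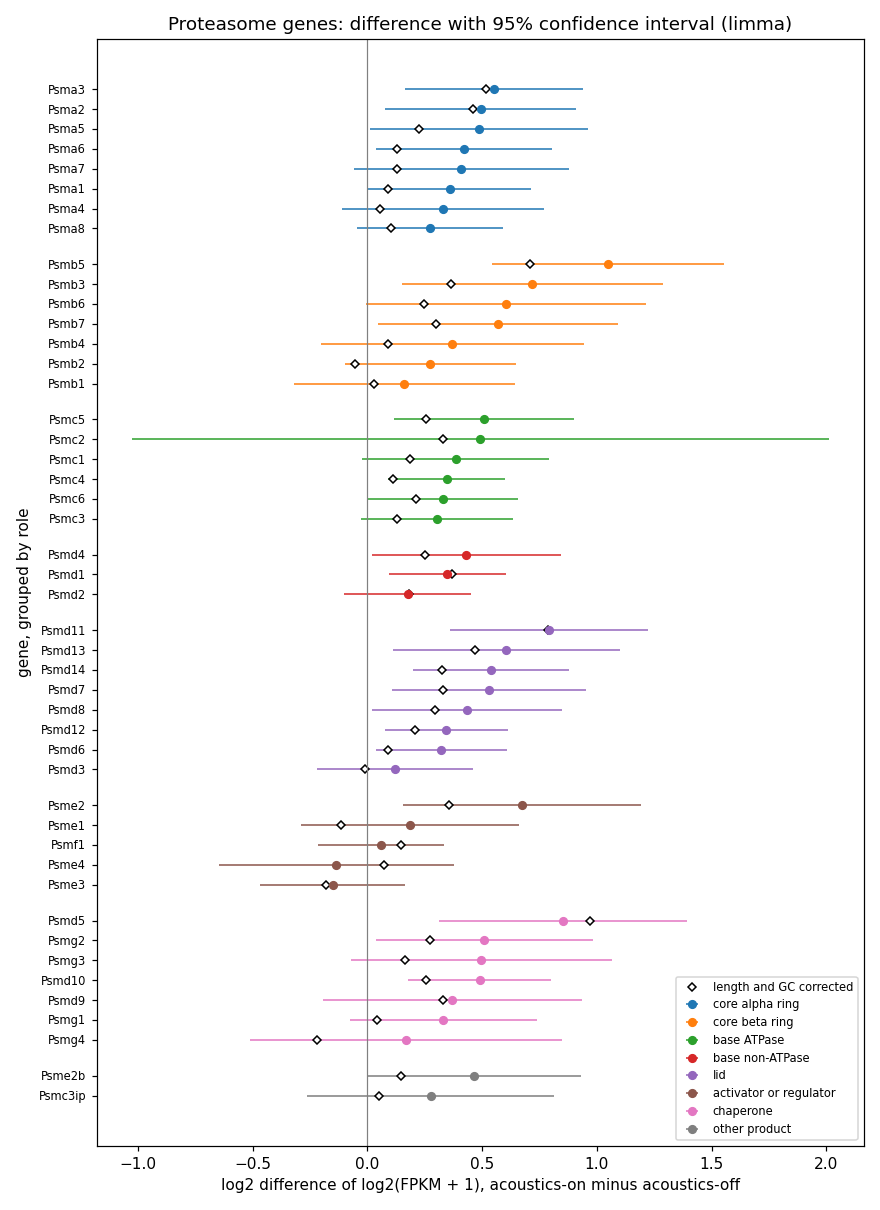
Log2 difference of each proteasome gene (acoustics on minus acoustics off, x axis) grouped by role (y axis), as coloured points with 95% confidence intervals from limma, n = 3 libraries per group. Open diamonds give the same difference after a length and GC correction. Coloured points lie above 0 for 44 of 46 genes, and Psmb5 lies highest at 1.05.

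The libraries did not contribute equally. Acoustics-on replicate 1 held the highest of the 3 acoustics-on values for 41 of 46 genes, and replicates 2 and 3 for 1 and 4. Against the acoustics-off mean, the median over the 46 genes was 0.76, 0.31 and 0.23 in acoustics-on replicates 1, 2 and 3, with 44, 42 and 37 genes above 0. For each acoustics-off library, measured against the other pair of its group, the medians were -0.04, 0.03 and 0.01. All 3 acoustics-on medians thus lay above those within the acoustics-off group.

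Replicate 1 also differed in ways that touch short transcripts. Over 10446 protein-coding genes tested, the rank correlation of transcript length with the difference from acoustics off was -0.59, -0.47 and 0.03 in acoustics-on replicates 1, 2 and 3 (a description across genes, which are not independent), and it lay between -0.32 and 0.26 in the acoustics-off libraries. Proteasome transcripts are short, with a median of 1490 bases for the longest transcript of each gene, against 3055 bases over those protein-coding genes. Within the 46 genes the same rank correlation was -0.36, -0.28 and 0.17 in acoustics-on replicates 1, 2 and 3, and 0.18, -0.30 and 0.17 in acoustics-off replicates 1, 2 and 3. Acoustics-off replicate 2 thus had a rank correlation about as strong as acoustics-on replicate 2. A rank correlation does not measure the size of the differences, whose medians were 0.03 and 0.31 in these 2 libraries. With the length and GC trend of each library divided out, the median of the 46 genes was 0.20 and 41 were above 0. With that correction and without acoustics-on replicate 1 it was 0.18, with 39 above 0. Without replicate 1 alone it was 0.26, and 11 members then rose and 0 fell (limma, adjusted p under 0.05), where 4.34% of all genes tested rose. These 11 were Psmb5, Psma3, Psmc4, Psmc5, Psmd1, Psmd5, Psmd7, Psmd10, Psmd11, Psmd14 and Psme2, and they included all 8 genes that passed in the authors' deposited table. Other alternatives gave other counts. Leaving out acoustics-on replicate 2 called 2 members (background 1.64% higher), quantile normalization and equal FPKM sums called 1 each (1.79% and 1.24%), and the length and GC correction called 2 (2.59%), or 10 when acoustics-on replicate 1 was also left out (5.88%). Library weights called 40 members higher and 1 lower, where 27.9% of all genes tested were called higher and 28.1% lower.

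**Figure D2:**
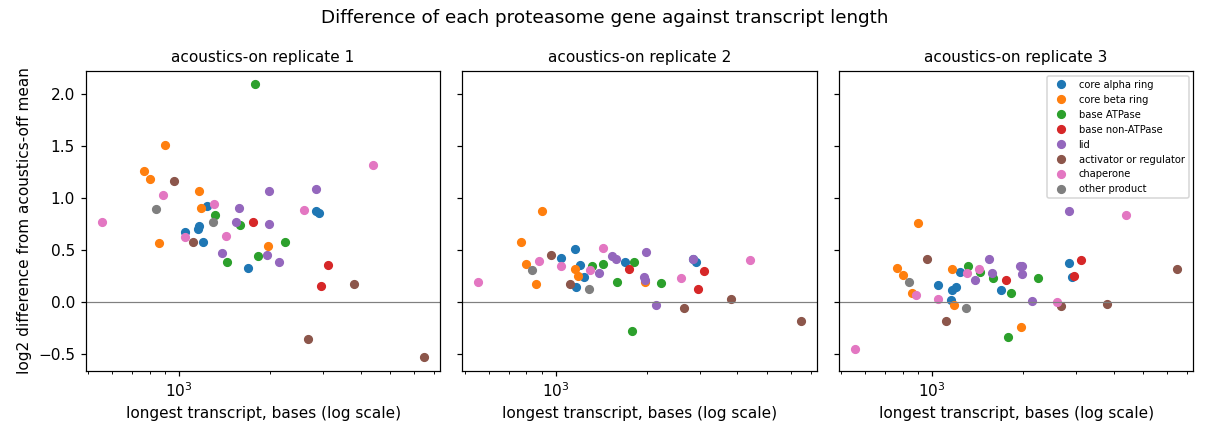
Difference of each proteasome gene from the acoustics-off mean (log2 scale, y axis) against the length of its longest transcript (bases, log axis), with 1 panel per acoustics-on replicate and points coloured by role. The median of the 46 points is 0.76, 0.31 and 0.23 in replicates 1, 2 and 3, and the rank correlation with length is -0.36, -0.28 and 0.17, where acoustics-off libraries (not drawn) gave 0.18, -0.30 and 0.17.

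All 9 macrophage markers passed the filter, with a summed level of 20008 to 26921 FPKM in acoustics-on libraries and 28197 to 30423 FPKM in acoustics-off libraries. Of 19 markers of fibroblasts, endothelium, epithelium, lymphocytes and neutrophils, 7 matched a symbol and 1 passed the filter, the neutrophil and myeloid gene S100a8, at 1.52 to 6.97 FPKM with acoustics on and 0.09 to 0.18 FPKM with acoustics off. The part of these differences in the proteasome values was not tested.

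By role, the medians of the log2 difference were 0.41 for the alpha ring (8 genes), 0.57 for the beta ring (7 genes), 0.37 for the base ATPases (6 genes), 0.35 for the other base subunits (3 genes), 0.48 for the lid (8 genes), 0.49 for the assembly chaperones (7 genes) and 0.06 for the activators and regulators (5 genes). No difference between roles was tested. With the length and GC correction the medians were 0.13, 0.25, 0.20, 0.25, 0.31, 0.25 and 0.07 in the same order. Without acoustics-on replicate 1 they were 0.26, 0.31, 0.22, 0.26, 0.32, 0.23 and 0.0047. With the correction the alpha ring, the base and the lid differed by less than before, as did the beta ring and the chaperones. In the core, the base and the lid each acoustics-on library had a median above those of the acoustics-off libraries. In the chaperones this held for acoustics-on replicates 1 and 2 (0.88 and 0.34), while replicate 3 (0.06) lay below the highest acoustics-off median (0.08). In the activators and regulators the acoustics-on medians were 0.17, 0.03 and -0.02, and the lowest of these lay within the acoustics-off range of -0.04 to 0.02.

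**Figure D3:**
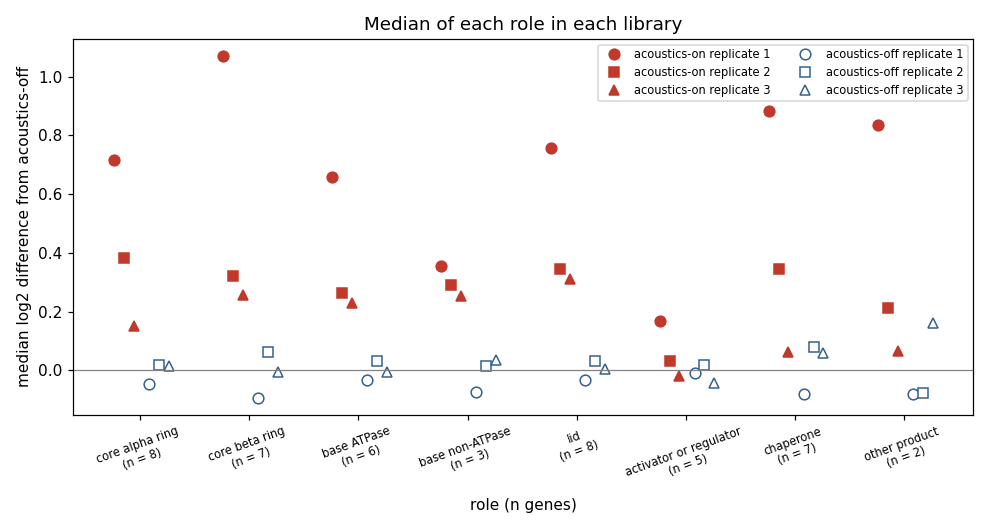
Median log2 difference from acoustics off (y axis) for each role (x axis, with the number of genes) in each library, acoustics-on replicates as filled red symbols and acoustics-off replicates as open blue symbols, each of these measured against the other pair of its group. In the beta ring the acoustics-on medians are 1.07, 0.32 and 0.26, while the activators and regulators stay between -0.02 and 0.17.

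The alpha ring subunits Psma1 to Psma7 form the outer rings of the core and gate its channel. All 7 had positive log2 differences, from 0.33 for Psma4 to 0.55 for Psma3, and only Psma7 overlapped between groups. Psma3 (chromosome 12, 70974621 to 70996347, GRCm38) had 184, 134 and 131 FPKM in acoustics-on replicates 1, 2 and 3, against 97.7, 101 and 103 FPKM in acoustics-off replicates 1, 2 and 3. Its acoustics-on libraries all lay above the acoustics-off ones, with a log2 difference of 0.55 (SE 0.16, limma adjusted p = 0.15). In the authors' deposited table its log2 fold change was 0.57 with an adjusted p of 0.044. Psma8, known as the testis form that takes the place of Psma7, was low, at 7.79, 8.19 and 6.59 FPKM with acoustics on and 6.31, 5.57 and 6.25 FPKM with acoustics off. It had the smallest difference of the 8 alpha genes (0.27, SE 0.14, limma adjusted p = 0.30), and its groups did not overlap. Corrected for length and GC, the log2 difference was 0.52 for Psma3 and 0.10 for Psma8.

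The beta ring holds the proteolytic sites, and here lay the proteasome gene with the largest difference. Psmb5 (chromosome 14, 54614119 to 54618022), the catalytic subunit with chymotrypsin-like activity and the main target of the inhibitor bortezomib, had 329, 211 and 196 FPKM in acoustics-on replicates 1, 2 and 3, against 108, 123 and 114 FPKM in acoustics-off replicates 1, 2 and 3. The lowest acoustics-on library was well above the highest acoustics-off library. Psmb5 averaged 245 ± 73.4 FPKM with acoustics on and 115 ± 7.39 FPKM with acoustics off (SD, n = 3 each), a ratio of means of 2.13. Its log2 difference of 1.05 (SE 0.21, 95% interval 0.54 to 1.55) did not pass the test (limma adjusted p = 0.066), and in the authors' deposited table it passed (log2 fold change 1.09, adjusted p = 0.00033). With the length and GC correction it was 0.71 (limma adjusted p = 0.014), and over 18 alternatives the adjusted p ranged from 2.9e-06 to 0.30. It was called in 6 of these alternatives, including the one without acoustics-on replicate 1.

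The other catalytic subunits had smaller differences. Psmb6, the caspase-like subunit and the most abundant core transcript, had 794, 449 and 416 FPKM with acoustics on and 334, 374 and 337 FPKM with acoustics off (log2 difference 0.60, SE 0.26, limma adjusted p = 0.26). Psmb7, the trypsin-like subunit, had 258, 153 and 153 FPKM with acoustics on and 117, 124 and 127 FPKM with acoustics off (log2 difference 0.57, SE 0.22, limma adjusted p = 0.23). In both genes the groups did not overlap, with replicate 1 far above the other acoustics-on libraries. With the length and GC correction the log2 differences were 0.25 for Psmb6 and 0.30 for Psmb7, and without acoustics-on replicate 1 they were 0.31 and 0.32. Among the beta subunits without a catalytic site, Psmb3 had the largest log2 difference (0.72, SE 0.24, limma adjusted p = 0.19) and passed with the length and GC correction at a smaller log2 difference of 0.37 (limma adjusted p = 0.049). Without acoustics-on replicate 1 its log2 difference was 0.45. Psmb1 had the smallest difference of the ring, with 164, 129 and 95.6 FPKM with acoustics on and 107, 117 and 117 FPKM with acoustics off (log2 difference 0.16, SE 0.20, limma adjusted p = 0.64). Its groups overlapped, and replicate 3 was below every acoustics-off library. Corrected for length and GC, its log2 difference was 0.03.

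**Figure D4:**
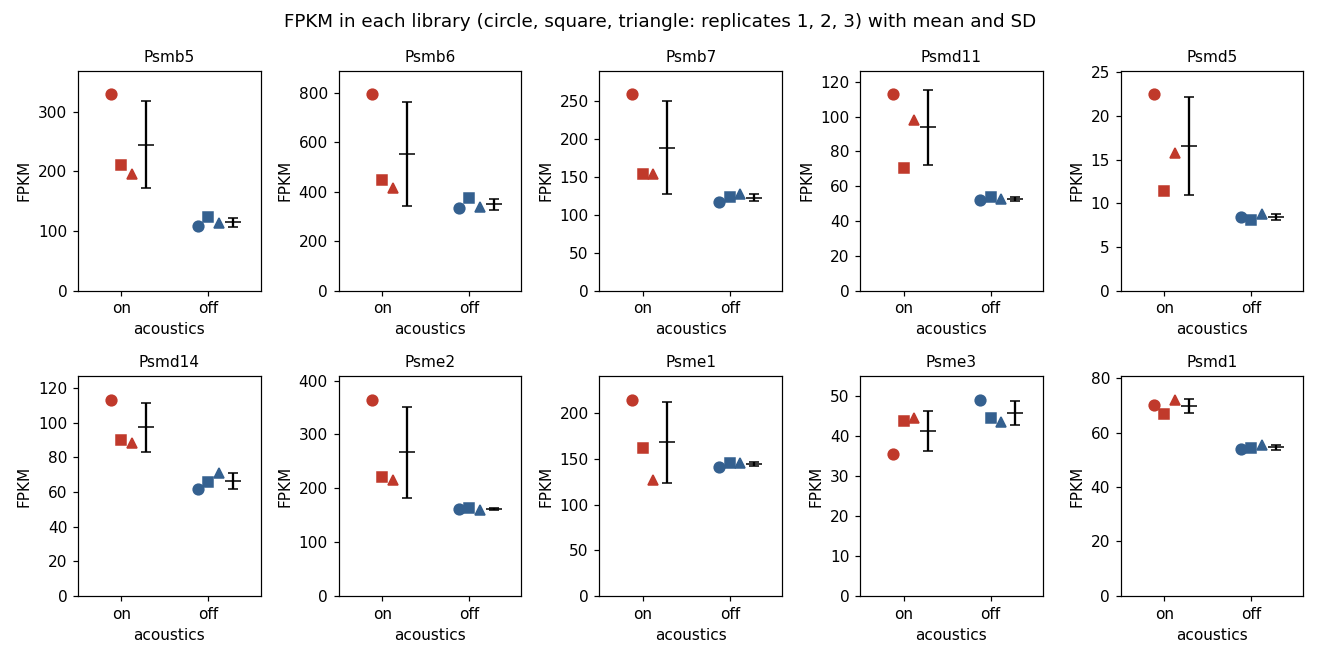
FPKM in each library (y axis, from 0) for 10 proteasome genes, acoustics-on libraries on the left and acoustics-off libraries on the right, with circles, squares and triangles for replicates 1, 2 and 3 and the mean ± SD in black. Psmb5 sits between 196 and 329 with acoustics on, above 108 to 123 with acoustics off, while the groups of Psme1 and Psme3 overlap.

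Since Psmb5 was picked for its large difference, its ratio to genes of the same library, which removes any scaling of whole libraries, is given as a description. Psmb5 over the median of the other 6 constitutive beta subunits was 1.24, 1.31 and 1.33 in acoustics-on replicates 1, 2 and 3, against 0.92, 1.00 and 0.93 in acoustics-off replicates 1, 2 and 3. The ratio averaged 1.29 ± 0.04 with acoustics on and 0.95 ± 0.04 with acoustics off (SD, n = 3 each). The 3 acoustics-on values lay close together, unlike the FPKM values they came from. Psmb5 stood in place 5 among the 14 core subunits with acoustics on, against place 9 with acoustics off, while Psmb6, Psmb4, Psma6 and Psma7 took the first 4 places in both groups.

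Each constitutive catalytic subunit has an interferon-induced counterpart, Psmb8 for Psmb5, Psmb9 for Psmb6 and Psmb10 for Psmb7. Psmb5 made up 66.6%, 60.2% and 67.2% of the FPKM sum of Psmb5 and Psmb8 in acoustics-on replicates 1, 2 and 3, against 46.9%, 49.8% and 48.0% in acoustics-off replicates 1, 2 and 3. The groups did not overlap and differed by 16.5 percentage points (exact permutation test, two-sided p = 0.1, and 0.17 adjusted over the 5 ratios computed). This p is the smallest that 3 against 3 libraries allow. Because Psmb5 was picked for its large difference in these same libraries, the p-value is no independent support. The adjustment does not cover the choice of Psmb5 among the 46 members. Psmb6 made up 94.2 ± 1.22% of its pair with acoustics on and 93.0 ± 0.31% with acoustics off, and Psmb7 made up 70.4 ± 5.05% with acoustics on and 66.3 ± 0.79% with acoustics off (SD, n = 3 each, exact permutation p = 0.3 for both). In those 2 pairs the groups overlapped. Psmb8 itself averaged 133 ± 35.2 FPKM with acoustics on and 123 ± 0.83 FPKM with acoustics off (log2 difference 0.07, SE 0.21, limma adjusted p = 0.84), and the limma adjusted p was 0.47 for Psmb9 and 0.62 for Psmb10.

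**Figure D5:**
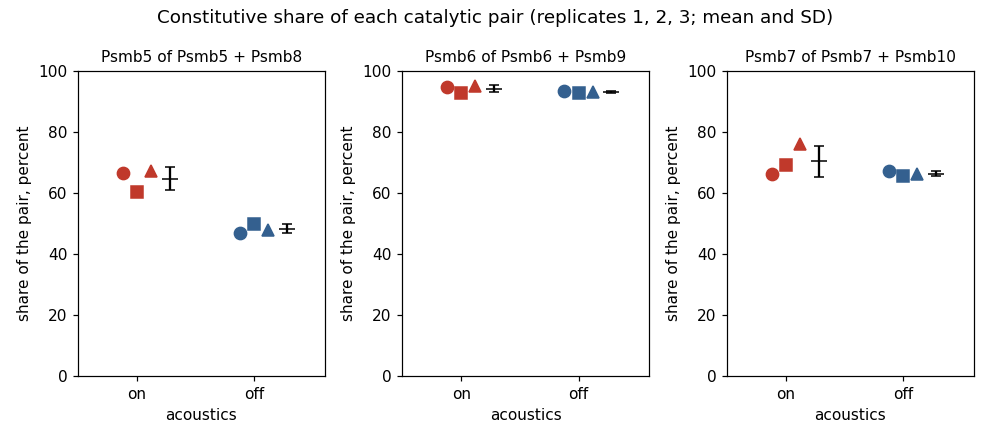
Share of the constitutive subunit in the FPKM sum of each catalytic pair (percent, y axis from 0 to 100) in each library, acoustics on at the left and off at the right of each panel, with replicates 1, 2 and 3 as circle, square and triangle and the mean ± SD in black. The Psmb5 share is 60.2% to 67.2% with acoustics on and 46.9% to 49.8% with acoustics off, and the other 2 pairs overlap.

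The 120 bases just before the RefSeq start sites of the 3 genes with the largest differences, Psmb5, Psmd11 and Psmd5, and of Psmb6, the other catalytic gene with a match, are shown because NRF1 and NRF2 are known to act through antioxidant response elements. Sequences are from RefSeq (GRCm38.p6), 5′ to 3′ on the gene's strand, at chr14:54617996-54618115 (minus strand), chr11:80428495-80428614 (plus), chr2:34870963-34871082 (minus) and chr11:70525237-70525356 (plus) in the order listed, and capitals mark a match to the core letters of this element, TGACNNNGC, on either strand. RefSeq and GENCODE place some starts differently, so that 27 bases of the Psmb5 stretch lie in GENCODE exons of that gene and the Psmd5 stretch lies inside the GENCODE gene span given for Psmd5 further on.
Psmb5: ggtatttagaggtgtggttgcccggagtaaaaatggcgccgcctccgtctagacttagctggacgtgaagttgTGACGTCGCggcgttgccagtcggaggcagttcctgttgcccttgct
Psmd11: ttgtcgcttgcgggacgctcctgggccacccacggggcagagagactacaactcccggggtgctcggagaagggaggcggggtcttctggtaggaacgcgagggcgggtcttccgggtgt
Psmd5: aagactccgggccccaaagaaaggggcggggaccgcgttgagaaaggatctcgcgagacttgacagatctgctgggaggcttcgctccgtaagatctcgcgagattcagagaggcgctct
Psmb6: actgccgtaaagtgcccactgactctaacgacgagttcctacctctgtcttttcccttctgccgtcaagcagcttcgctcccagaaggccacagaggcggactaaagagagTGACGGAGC

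The match in Psmb5 begins 47 bases before the start and that in Psmb6 begins 9 bases before it. In windows from 250 bases before to 50 bases after the start, 38 member genes had a sequence and 6 of them (15.8%) held TGACNNNGC on either strand, Psmb5, Psmb6, Psmd9, Psmd12, Psmc6 and Psme4. Over all genes with such windows the share was 14.0%, so the members were near the background. The CCAAT box, searched as CCAAT on either strand with no regard to overlap with the other motif, was in 13 of the 38 (34.2%) and in 41.1% of all genes. These matches describe letters only.

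The 6 base ATPases, Psmc1 to Psmc6, form the ring that unfolds substrates and opens the gate of the core. Their log2 differences lay between 0.30 for Psmc3 and 0.51 for Psmc5. Psmc5 had 113, 79.9 and 80.3 FPKM with acoustics on and 59.7, 63.7 and 65.6 FPKM with acoustics off (log2 difference 0.51, SE 0.17, limma adjusted p = 0.18). Psmc3 had 136, 131 and 106 FPKM with acoustics on and 95.9, 106 and 99.1 FPKM with acoustics off (log2 difference 0.30, SE 0.14, limma adjusted p = 0.28). In both genes the lowest acoustics-on library lay above the acoustics-off libraries, for Psmc3 by under 1 FPKM. The log2 differences were 0.26 for Psmc5 and 0.13 for Psmc3 after the length and GC correction. Psmc2, named after its values were seen, departed from its ring partners with 66.2, 11.9 and 11.4 FPKM with acoustics on and 15.0, 10.5 and 20.1 FPKM with acoustics off. Only acoustics-on replicate 1 was high, and without it the log2 difference was -0.31 in place of 0.49.

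Psmd1, Psmd2 and Psmd4 complete the base, the first 2 as large scaffolds and Psmd4 as a ubiquitin receptor. Psmd1 (chromosome 1, 86064387 to 86139151) had 70.0, 66.9 and 72.1 FPKM with acoustics on and 54.0, 54.2 and 55.4 FPKM with acoustics off (log2 difference 0.35, SE 0.11, limma adjusted p = 0.16). Its acoustics-on libraries were nearly equal, and its difference was 0.37 with the length and GC correction and 0.34 without acoustics-on replicate 1. In the authors' deposited table it passed (log2 fold change 0.35, adjusted p = 0.046). Psmd4 had 196, 143 and 133 FPKM with acoustics on and 109, 121 and 115 FPKM with acoustics off (log2 difference 0.43, SE 0.17, limma adjusted p = 0.24). Its log2 difference was 0.25 after the length and GC correction and 0.26 without acoustics-on replicate 1. Psmd2 had the smallest difference of the 3, with 137, 135 and 148 FPKM with acoustics on and 119.8, 125 and 127 FPKM with acoustics off (log2 difference 0.18, SE 0.12, limma adjusted p = 0.41), and in all 3 genes the groups did not overlap.

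The lid deubiquitinates substrates and is held together by scaffold subunits. Psmd11 (chromosome 11, 80428615 to 80473248), one of these scaffolds, had the largest difference of the lid and the third largest of all, with 113, 70.7 and 97.8 FPKM with acoustics on and 51.8, 53.7 and 52.6 FPKM with acoustics off. Every acoustics-on library was above every acoustics-off one, and replicate 2 rather than replicate 3 was the lowest of them. Its log2 difference was 0.79 (SE 0.18, limma adjusted p = 0.088), and 0.78 with the length and GC correction, so it was nearly as large after that step. The authors' deposited table gave it a log2 fold change of 0.83 and an adjusted p of 0.0031. Psmd14, the metalloprotease that removes ubiquitin chains, had 113, 90.1 and 88.4 FPKM with acoustics on and 61.9, 66.1 and 71.2 FPKM with acoustics off (log2 difference 0.54, SE 0.14, limma adjusted p = 0.12). In the authors' deposited table it had 0.55 with an adjusted p of 0.026, and with the length and GC correction its log2 difference was 0.32. The other lid genes lay between 0.32 and 0.61, apart from Psmd3, which had 76.7, 57.5 and 59.1 FPKM with acoustics on and 58.2, 60.6 and 57.2 FPKM with acoustics off. In Psmd3 only acoustics-on replicate 1 was above the acoustics-off libraries (log2 difference 0.12, SE 0.14, limma adjusted p = 0.62).

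The chaperones assemble the complex and leave it when it is complete. Psmd5, Psmd9 and Psmd10 each bind base ATPases during assembly, and Psmg1 to Psmg4 build the alpha ring. Psmd5 (chromosome 2, 34849734 to 34874968) had 22.5, 11.4 and 15.8 FPKM with acoustics on and 8.41, 8.04 and 8.78 FPKM with acoustics off. Its groups did not overlap, and its log2 difference of 0.85 (SE 0.23, limma adjusted p = 0.12) was second only to that of Psmb5. It was 0.97 with the length and GC correction, the largest of the members there, and the authors' deposited table gave 0.98 with an adjusted p of 0.0067. Psmd10, also called gankyrin, had 92.5, 85.4 and 74.1 FPKM with acoustics on and 55.6, 61.1 and 61.5 FPKM with acoustics off (log2 difference 0.49, SE 0.13, limma adjusted p = 0.12). In the authors' deposited table it had 0.50 with an adjusted p of 0.027, and with the length and GC correction its log2 difference was 0.25. Psmg4 had 88.0, 58.8 and 37.1 FPKM with acoustics on and 49.4, 54.2 and 50.5 FPKM with acoustics off. Its acoustics-on libraries lay on both sides of the acoustics-off ones (log2 difference 0.17, SE 0.29, limma adjusted p = 0.74), and it has the shortest transcript of the members, 555 bases. The summed FPKM of Psmg1 to Psmg4 was 183, 125 and 92.1 with acoustics on and 100.02, 108 and 99.3 with acoustics off.

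The activators bind the ends of the core in place of the regulatory particle. Psme1 and Psme2 encode the subunits of the interferon-inducible PA28 ring, and they differed from each other. Psme2 (chromosome 14, 55587441 to 55591113) had 365, 221 and 215 FPKM with acoustics on and 161, 164 and 160.0 FPKM with acoustics off (log2 difference 0.67, SE 0.22, limma adjusted p = 0.18). In the authors' deposited table it had 0.72 with an adjusted p of 0.049. Its log2 difference was 0.36 after the length and GC correction and 0.43 without acoustics-on replicate 1. Psme1 had 215, 163 and 127 FPKM with acoustics on and 142, 145 and 146 FPKM with acoustics off, and its groups overlapped (log2 difference 0.19, SE 0.20, limma adjusted p = 0.59). Within each library Psme2 over Psme1 was 1.69, 1.36 and 1.69 with acoustics on and 1.14, 1.13 and 1.10 with acoustics off (exact permutation test, two-sided p = 0.1, adjusted 0.17). A p of 0.1 is the smallest that 3 against 3 libraries allow in that test. Psme2 had the largest difference of its role in these same libraries, so the p-value is no independent support. Reads of Psme2 and its close copy Psme2b may have been shared, so the ratio of Psme2 to Psme1 is also uncertain.

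The remaining activator genes did not pass the test either. Psme3, the nuclear activator that forms a ring by itself, had 35.5, 43.8 and 44.4 FPKM with acoustics on and 49.2, 44.5 and 43.6 FPKM with acoustics off. It was the most negative member (log2 difference -0.15, SE 0.13, 95% interval -0.47 to 0.16, limma adjusted p = 0.52), and its groups overlapped. Psme4, the large activator known from testis and DNA repair, was at -0.14 (95% interval -0.65 to 0.38, limma adjusted p = 0.71), and at 0.07 with the length and GC correction. Its transcript is the longest of the members at 6491 bases. Psmf1, which encodes the inhibitor and transport factor PI31, was at 0.06 (95% interval -0.22 to 0.33, limma adjusted p = 0.77).

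A further 2 genes matched the symbol pattern without being standard subunits. Psmc3ip encodes a partner of meiotic recombinases and had 10.2, 6.11 and 5.26 FPKM with acoustics on and 5.15, 5.39 and 6.15 FPKM with acoustics off (log2 difference 0.28, SE 0.23, limma adjusted p = 0.49). Psme2b lies within another gene model, Gm12185, over its whole 837 bases, and had 45.2, 29.8 and 27.4 FPKM with acoustics on and 23.5, 22.7 and 25.4 FPKM with acoustics off (log2 difference 0.47, SE 0.20, limma adjusted p = 0.25). For Psmc3ip and Psme2b the corrected values were 0.05 and 0.15, and those without acoustics-on replicate 1 were 0.03 and 0.25. Of the 46 members, 12 overlap another protein-coding gene body in GENCODE M21, 4 of them on the same strand, and how such reads were counted is not given in the sources used here. Among the genes named above these include Psmb7, Psmc3, Psmd1, Psmd5 and Psme1, of which Psmd1 has its neighbour (Gm21972) on the same strand.

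Levels of the subunits followed a similar, not an identical, order in both groups. Over the 46 members the rank correlation of mean FPKM, acoustics on with acoustics off, was 0.98, and over the 14 core subunits it was 0.91. With acoustics on the core subunits ran from 54.3 FPKM (Psma2) to 553 FPKM (Psmb6), and with acoustics off from 37.7 FPKM (Psma2) to 348 FPKM (Psmb6). The core sum was 4050, 2772 and 2441 FPKM in acoustics-on replicates 1, 2 and 3, against 2058, 2203 and 2124 FPKM in acoustics-off replicates 1, 2 and 3. The whole-library FPKM sums differed too, with replicate 1 at 1000722 and the others between 716509 and 840707. As a share of each library's FPKM sum, the core made up 0.405%, 0.336% and 0.341% with acoustics on and 0.245%, 0.267% and 0.259% with acoustics off, so the groups did not overlap on that scale either.

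The wider pathway was mixed in direction. Of 41 further ubiquitin and proteasome pathway genes tested, 1 rose and 0 fell (limma adjusted p under 0.05), where 1.5% of all genes tested rose and 0.574% fell. Above 0 were 22 of the 41, near the 47% of all genes tested, with a median log2 difference of 0.03. The 1 gene that passed was Mafg, a small Maf protein that pairs with NRF1 and NRF2 on DNA, with 49.2, 44.4 and 60.6 FPKM with acoustics on and 29.5, 29.9 and 29.0 FPKM with acoustics off (log2 difference 0.77, SE 0.14, limma adjusted p = 0.047). Its groups did not overlap, and its adjusted p ranged from 2.3e-05 to 0.25 over 18 alternatives, of which 9 called it. Mafk and Maff, the other small Maf genes listed and named after their values were seen, were below 0. Mafk had 14.1, 16.8 and 17.2 FPKM with acoustics on and 22.2, 22.5 and 21.4 FPKM with acoustics off (log2 difference -0.44, SE 0.12, limma adjusted p = 0.14). Maff was at -0.10 (SE 0.12, limma adjusted p = 0.61). Among 12 proteasome-bound proteins without a Psm symbol, 0 passed, 9 were above 0 and the median was 0.22, or 0.07 with the length and GC correction. Pomp, the maturation factor of the core, had 308, 246 and 181 FPKM with acoustics on and 198, 211 and 201 FPKM with acoustics off (log2 difference 0.23, SE 0.20, limma adjusted p = 0.51), and its groups overlapped. Among 11 genes of ubiquitin shuttles and the p97 unfoldase, 0 passed and the median was -0.12 (-0.06 with the correction). Among 6 ubiquitin and ubiquitin-activating genes 0 passed and the median was -0.13 (-0.26 with the correction).

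Apart from Mafg, no regulator of proteasome transcription passed the test. Nfe2l1 had 90.8, 99.8 and 152 FPKM with acoustics on and 101, 96.3 and 97.5 FPKM with acoustics off (log2 difference 0.18, SE 0.20, limma adjusted p = 0.60). Nfe2l2 had 63.3, 78.6 and 75.8 FPKM with acoustics on and 89.9, 87.6 and 84.4 FPKM with acoustics off (log2 difference -0.27, SE 0.13, limma adjusted p = 0.29). Every acoustics-on library of Nfe2l2 lay below the acoustics-off ones, while for Nfe2l1 only replicate 3 lay above them. Named after their values were seen, Nfya and Nfyb also had every acoustics-on library below the acoustics-off ones, as Mafk did. That order was seen in 17.7% of all genes tested. Nfya was at -0.67 (SE 0.35, limma adjusted p = 0.31), and at -0.23 without acoustics-on replicate 1. Nfyb was at -0.31 (SE 0.12, limma adjusted p = 0.22). Over the 9 regulators the median log2 difference was -0.10, with 2 above 0 and 7 below. Of these 9, 1 rose and 0 fell.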

How the data were processed

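The deposited tables hold 6 libraries. The submitters' processing notes name the GRCm38 build, DESeq2 1.38.2, Salmon 1.4.0, STAR 2.7.11 and Trim Galore 0.6.8, with no order or settings. The labels' protocols name an rRNA depletion kit, but their molecule field says polyA RNA, a conflict that was not resolved. The authors deposited FPKM per gene and library. Median-of-ratios factors computed from these values were equal in all 6 libraries, so the FPKM were already scaled that way. Read depth per library was not recovered from the FPKM. A second deposited table holds the authors' own test, giving a mean signal per gene (normalised counts), log2 fold changes with standard errors, a score (the Wald statistic), p-values and adjusted p-values.

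Here log2(FPKM + 1) was tested with limma 3.58.1 in R 4.3.3 (trended, robust prior, no replicate term) on genes with at least 0.5 FPKM in at least 3 libraries, with Benjamini-Hochberg adjustment over all of them. The fit was tried on simulated data with 200 changed genes. It found 55.9% of log2 differences of 1 and 89.0% of those of 2 in either direction, and 4.45% of its calls were false. Smaller differences were not simulated. Noise was drawn separately for each gene, so a shift shared by many genes of 1 library was not simulated either. Fold changes on this scale understate those of low genes. The length and GC correction divided a loess trend (span 0.5) on length and GC of the longest GENCODE M21 coding transcript out of each library, fitted on genes with a mean of at least 1 FPKM. No value above 0 was shared between any 2 libraries.

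The members, roles and lists were chosen with earlier results of these data known. Values in every library are given for members past the threshold in either table, the largest and smallest difference of each role and the 3 catalytic genes. Among the listed regulators they are given for Mafg, Mafk, Nfe2l1 and Nfe2l2. Alternatives were other pseudocounts, filters, scalings and priors, library weights, a replicate term, the correction and each library left out. Scaling to equal FPKM sums was chosen after seeing the data. Fits on fewer libraries filtered again.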

Additional observations from a re-analysis of the deposited data

How the results depend on the processing

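With all libraries in the fit, 0 members rose under another pseudocount, either other filter, median-of-ratios scaling or no robust prior. 1 member (Psmb5) rose with quantile normalization and with equal FPKM sums, 2 (Psmb3 and Psmb5) with the length and GC correction, and 10 with that correction and without acoustics-on replicate 1. With library weights, where limma warned that the weights had not converged, 40 rose and 1 (Psme4) fell. Leaving out 1 library at a time gave between 0 and 11 members that rose, 11 without acoustics-on replicate 1, 2 (Psmd5 and Psmd11) without acoustics-on replicate 2 and 0 without any other. The cause was not tested. Psmb5 had the largest difference of the members in the reported analysis and in 16 of 18 alternatives, and stood in place 3 in the others. The median of all genes tested stayed between -0.04 and 0.00 in every fit.

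Median differences by role moved beyond the spread of the acoustics-on libraries in 2 roles. This spread was the SD of the 3 acoustics-on medians of the same role, 0.05 for the non-ATPase base subunits and 0.28 for the alpha ring. Roles with a wider spread moved further without passing it. With the correction and without acoustics-on replicate 1, the chaperones went from 0.49 to 0.15 (SD 0.42) and the beta ring from 0.57 to 0.22 (SD 0.45). The base subunits that are not ATPases were at 0.29 with quantile normalization, 0.29 with library weights, 0.25 with the length and GC correction, with or without a replicate block, and 0.21 with it and without acoustics-on replicate 1. With 1 library left out they ran from 0.26 to 0.38. Of those fits only the one without acoustics-on replicate 1 (0.26) moved beyond the spread. The alpha ring was at 0.13 with the correction, with or without the block. Pathway genes that rose numbered 0 without a filter, with the stricter filter, with quantile normalization and with equal FPKM sums. With library weights 11 of the 41 rose and 12 fell, near the 27.9% and 28.1% of all genes tested. With the correction and without acoustics-on replicate 1, 4 rose, where 5.88% of all genes tested rose, and 4 fell. With 1 library left out 0 to 1 rose and 0 to 1 fell, and 2 fell with the correction. For those that fell in the corrected fits and with 1 library left out, the share over all genes tested was not computed. Named after its values were seen, the gene that fell without acoustics-on replicate 1 was Mafk.

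Without acoustics-on replicate 1, 6 members changed sign. Their log2 differences with 1 library left out ran from -0.025 to 0.36 (Psmb1), -0.31 to 0.91 (Psmc2), -0.0089 to 0.20 (Psmd3), -0.0076 to 0.37 (Psme1), -0.13 to 0.48 (Psmg4) and -0.36 to 0.063 (Psme4). With library weights these were Psmc2 (-0.30) and Psmd3 (-0.024). With the length and GC correction, with or without the replicate block, they were Psmb2 (-0.055), Psmd3 (-0.010), Psme1 (-0.11), Psmg4 (-0.22) and Psme4 (0.071). With it and without acoustics-on replicate 1 they were Psmb1 (-0.085), Psmc2 (-0.38), Psmc3ip (-0.051), Psmd3 (-0.021), Psme1 (-0.093), Psmg4 (-0.20) and Psme4 (0.13). None of these had passed in the reported analysis.

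The labels share replicate numbers between groups. Same-numbered libraries were not seen to deviate together (correlations from -0.073 to -0.0039). With 3 libraries per group these correlations cannot decide whether same-numbered libraries were paired. With the replicate block 0 members rose or fell and 0 pathway genes rose, and with the block and the correction 0 members rose. No library correlated best with its own number. With 3 libraries per group, acoustics-on replicate 1 sets much of the spread.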
